A study of Mus musculus with 2 samples.

Results

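The genes described here are 9 homeobox genes of the midbrain-hindbrain border and of the Iroquois family, Otx1, Otx2, Gbx2, En1, En2, Irx1, Irx2, Irx3 and Irx5. They form a list of symbols that was matched through Ensembl identifiers, and all 9 were present among the 43346 Ensembl genes of the tables. Hindbrain tissue from mouse embryos of strain B6NCrl at day 13.5, males and females pooled, was profiled by total RNA sequencing in 2 libraries. Each library began from 10 ng of RNA longer than 200 nt, held ERCC spike-ins (synthetic RNAs added as standards), and contained 33080194 estimated counts in replicate 1 and 38756411 in replicate 2. No allele or treatment is labelled and there is only 1 group, so no condition is compared. By their labels, the libraries are biological replicates 1 and 2, which share a donor entry but come from separate biosamples. A difference between them is therefore a difference between 2 libraries, part of which may be technical.

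The border between midbrain and hindbrain, the isthmus, is a signalling centre that patterns the tectum in front of it and the cerebellum behind it. Otx2 is expressed on the midbrain side and Gbx2 on the hindbrain side in the early neural plate, and the mutual repression of these transcription factors positions the isthmus. The Engrailed genes En1 and En2 are expressed on both sides of the border and are needed for the midbrain and cerebellum to form. The Iroquois (Irx) genes encode homeodomain factors of the TALE class that take part in regional patterning of the neural tube. Some of these genes have later roles: Otx2 is also expressed in the choroid plexus, the epithelium that secretes cerebrospinal fluid, and En1 marks the V1 class of inhibitory interneurons.

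All 9 genes encode a homeodomain whose recognition helix enters the major groove of DNA. The residue at position 50 of the homeodomain, within that helix, is known to bear on which bases are preferred, and it differed between the Otx genes, the Gbx2 and En genes, and the Irx genes. The coding stretches for this helix are given 5′ to 3′ from the GENCODE M21 transcripts (GRCm38), with codon 50 in capitals.
Otx1: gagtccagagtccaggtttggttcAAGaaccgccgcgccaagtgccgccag
Otx2: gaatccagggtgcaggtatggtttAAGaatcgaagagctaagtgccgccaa
Gbx2: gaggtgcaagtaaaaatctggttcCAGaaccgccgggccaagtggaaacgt
En1: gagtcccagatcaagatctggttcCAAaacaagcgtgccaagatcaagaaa
En2: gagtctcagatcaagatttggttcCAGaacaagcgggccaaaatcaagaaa
Irx1: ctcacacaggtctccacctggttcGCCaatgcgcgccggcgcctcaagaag
Irx2: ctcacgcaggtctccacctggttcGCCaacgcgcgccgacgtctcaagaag
Irx3: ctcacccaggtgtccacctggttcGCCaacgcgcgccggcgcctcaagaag
Irx5: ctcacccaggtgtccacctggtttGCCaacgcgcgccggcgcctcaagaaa
Codon 50 read AAG, for lysine, in both Otx genes. It read CAG or CAA, for glutamine, in Gbx2 and the En genes, and GCC, for alanine, in the 4 Irx genes. The homeobox spanned 180 bases in the Otx, Gbx2 and En genes and 189 bases in the Irx genes, since TALE homeodomains carry 3 extra residues. Over the homeobox, Otx1 and Otx2 were identical at 80.0% of bases, En1 and En2 at 83.3%, and the pairs of Irx genes at 85.2% to 91.0%. Over whole transcripts, the longest run of bases shared by the leading transcripts was 65 between Irx2 and Irx5, 50 between Irx3 and Irx5, 18 between Otx1 and Otx2 and 17 between En1 and En2. Between genes of different families it reached 21, so the runs within the Otx and En pairs were no longer than that. How reads in those shared runs were assigned is not given in the sources used here.

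Levels are in TPM (transcript abundance per library, scaled to a fixed total), a unit divided by transcript length that allows genes to be set side by side. In all, 8 of the 9 genes reached 1 TPM in replicate 1 and in replicate 2, the threshold used here for detection, and En2 did not. The same threshold was reached by 35.4% of all Ensembl genes, by 62.2% of annotated protein coding genes and by 59.2% of the 211 homeobox genes listed. The median of the 9 genes was 13.9 TPM, beside 0.115 TPM over all Ensembl genes and 16.1 TPM over those detected. Gbx2 had the highest level and En2 the lowest, with the order Gbx2, Irx2, Irx3, Otx2, Irx5, Irx1, En1, Otx1 and En2 by mean TPM. Each value carries a deposited credibility interval, whose level is not stated in the files, and neighbours in the order were treated as separated only where these intervals were disjoint in both libraries. Irx3 and Otx2 were not separated in either library. Irx1 and En1 were separated in replicate 2 only. The other 6 neighbouring pairs were separated in both libraries. In bulk tissue, fewer cells of a type and less RNA per cell cannot be told apart.

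**Figure D1:**
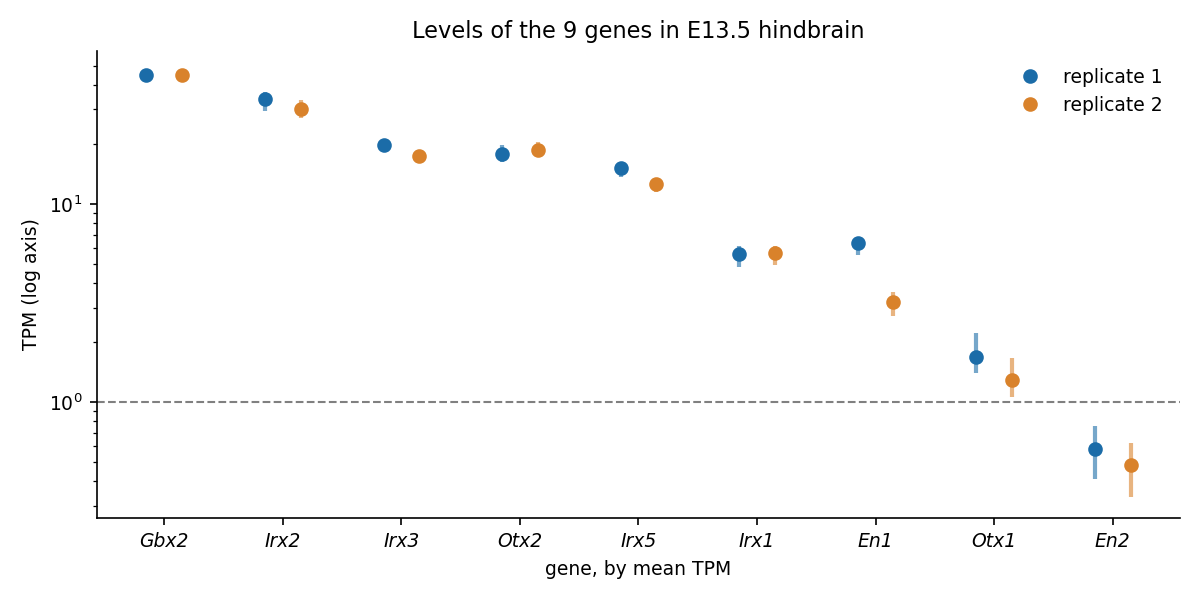
TPM of the 9 genes (log axis) in replicate 1 (blue) and replicate 2 (orange), with points for the deposited TPM, vertical lines for the deposited interval and a dashed line at 1 TPM. Gbx2 lies near 45 TPM in both libraries, En2 lies below the line in both, and En1 is the gene whose points lie furthest apart.

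Otx2, the midbrain-side factor, lies on the minus strand of chromosome 14 (GRCm38 chr14:48657677-48673819, ENSMUSG00000021848.11). It had 17.8 TPM in replicate 1 (interval 16.3 to 19.8, 646 counts) and 18.8 TPM in replicate 2 (interval 17.3 to 20.5, 798 counts). The intervals overlapped, and the mean was 18.3 ± 0.700 TPM (SD, n = 2). A tissue labelled hindbrain thus held Otx2 RNA at a level above that of 83.4% of all Ensembl genes and of 53.2% of those detected. Otx1, its paralog, lies on chromosome 11 (chr11:21994764-22002897, minus strand, ENSMUSG00000005917.11). It had 1.68 TPM in replicate 1 (interval 1.40 to 2.23, 107 counts) and 1.29 TPM in replicate 2 (interval 1.06 to 1.67, 91 counts), so that these intervals overlapped as well. The log2 ratio of Otx2 over Otx1, on TPM + 1, was 2.81 in replicate 1 and 3.11 in replicate 2, with a mean of 2.96 ± 0.213 (SD, n = 2). Crx, the family member known from photoreceptors, had 2 counts in each library.

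Gbx2, the hindbrain-side factor, lies on chromosome 1 (chr1:89927956-89931179, minus strand, ENSMUSG00000034486.8). It had 45.0 TPM in replicate 1 (interval 41.2 to 46.4, 1622 estimated counts) and 44.8 TPM in replicate 2 (interval 41.4 to 46.2, 1920 estimated counts). The intervals overlapped nearly throughout, and the mean was 44.9 ± 0.120 TPM (SD, n = 2). The fold of scaled counts, replicate 1 over replicate 2, was 0.984 (95% binomial interval 0.920 to 1.05). Gbx2 stood above Otx2 in both libraries, with a log2 ratio on TPM + 1 of 1.29 in replicate 1 and 1.21 in replicate 2, and a mean of 1.25 ± 0.0562 (SD, n = 2). In plain TPM, Gbx2 was 2.53 and 2.39 times Otx2 in replicates 1 and 2. Gbx1, the other gene of the family, had 3.73 and 4.14 TPM in replicates 1 and 2.

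En1 lies on chromosome 1 as well (chr1:120602418-120607992, plus strand, ENSMUSG00000058665.8), with 127 protein coding genes between it and Gbx2. It had 6.33 TPM in replicate 1 (interval 5.50 to 6.83, 330 counts) and 3.21 TPM in replicate 2 (interval 2.73 to 3.61, 198 counts). Replicate 1 was high and replicate 2 low, and the intervals were disjoint. En2 lies on chromosome 5 (chr5:28165694-28172166, plus strand, ENSMUSG00000039095.8). It had 0.58 TPM in replicate 1 (interval 0.409 to 0.753, 41 counts) and 0.48 TPM in replicate 2 (interval 0.333 to 0.622, 40 counts), both below the threshold of 1 TPM and with overlapping intervals. En2 RNA was present in both libraries, and exact Poisson intervals (95%, counting error only) ran from 0.416 to 0.787 TPM in replicate 1 and from 0.343 to 0.654 TPM in replicate 2. The log2 ratio of En1 over En2 was 2.21 in replicate 1 and 1.51 in replicate 2, with a mean of 1.86 ± 0.499 on TPM + 1 (SD, n = 2).

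The Irx genes of the mouse lie in 2 clusters, with Irx1 and Irx2 (and Irx4) in IrxA on chromosome 13 and Irx3 and Irx5 (and Irx6) in IrxB on chromosome 8. Irx1 (chr13:71957921-71963723, minus strand, ENSMUSG00000060969.8) and Irx2 (chr13:72628820-72634198, plus strand, ENSMUSG00000001504.10) are 665.1 kb apart, and Irx3 (chr8:91798525-91802067, minus strand, ENSMUSG00000031734.12) and Irx5 (chr8:92357625-92376286, plus strand, ENSMUSG00000031737.10) are 555.6 kb apart. No protein coding gene is annotated between the genes of either pair. Irx2 was the highest of the 4, with 33.8 TPM in replicate 1 (interval 29.6 to 36.9, 1180 counts) and 30.3 TPM in replicate 2 (interval 27.2 to 33.4, 1362 counts). Its intervals overlapped, and its mean was 32.0 ± 2.47 TPM (SD, n = 2). With all its counts divided by the length of its leading transcript, Irx2 had 22.4 ± 0.363 on the TPM scale (SD, n = 2). That was still the highest of the 4. Irx1 was the lowest of the 4, at 5.60 TPM in replicate 1 (263 counts) and 5.66 TPM in replicate 2 (314 counts), with overlapping intervals. The log2 ratio of Irx2 over Irx1 on TPM + 1 averaged 2.31 ± 0.117 (SD, n = 2).

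In IrxB, Irx3 had 19.9 TPM in replicate 1 (interval 18.2 to 20.6, 1027 estimated counts) and 17.4 TPM in replicate 2 (interval 16.0 to 18.1, 1063 estimated counts). Irx5 had 15.2 TPM in replicate 1 (interval 13.8 to 15.9, 724 counts) and 12.7 TPM in replicate 2 (interval 11.5 to 13.3, 713 counts). Both genes were higher in replicate 1, with disjoint intervals, and the log2 ratio of Irx3 over Irx5 on TPM + 1 averaged 0.40 ± 0.0459 (SD, n = 2). The summed TPM of Irx3 and Irx5 was 35.1 in replicate 1 and 30.1 in replicate 2, and that of Irx1 and Irx2 was 39.4 in replicate 1 and 35.9 in replicate 2. The log2 ratio of IrxB over IrxA was thus -0.20 ± 0.0606 on TPM + 1 (SD, n = 2), but it turned to 0.18 with CPM (counts scaled to library size, not to length) and to 0.21 with counts divided by the length of the leading transcript. Neither sum includes Irx4 or Irx6. Of the 2 Irx genes not among the 9, Irx4 had 5.96 and 4.71 TPM and Irx6 1.80 and 0.63 TPM in replicates 1 and 2. Mkx, a TALE gene related to the Irx genes and known from tendon, had 1.49 and 1.15 TPM.

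Summed over the families, the Irx genes had 74.5 TPM in replicate 1 and 66.0 TPM in replicate 2. They made up 51.1% and 49.1% of the TPM of all 9 genes in replicates 1 and 2. Gbx2 made up 30.8% and 33.3%, the Otx genes 13.3% and 14.9%, and the En genes 4.74% and 2.74%. The Otx sum was 19.8 ± 0.424 TPM (SD, n = 2), nearly all of it Otx2. The En sum was 5.30 ± 2.28 TPM (SD, n = 2), nearly all of it En1.

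Among the 211 homeobox genes matched, Gbx2 ranked 15, Irx2 29, Irx3 49, Otx2 54, Irx5 62, Irx1 87, En1 95, Otx1 118 and En2 146 by mean TPM. The top of that order was held by Meis1 (173 TPM on average), a TALE cofactor of Hox proteins, by Hoxb5 (168 TPM) and by Meis2 (128 TPM). The homeobox gene closest in level, over log2(TPM + 1) in both libraries, is named for 7 of the 9 genes as a measure of scale. It was Zfhx3 for Irx2, Lhx2 for Irx3, Hoxa3 for Otx2, Pou3f4 for Irx5, Hhex for Irx1, Meox2 for Otx1 and Alx4 for En2. The 2 libraries of 1 group hold no pattern across conditions, so closeness in level says nothing of a shared pattern.

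**Figure D2:**
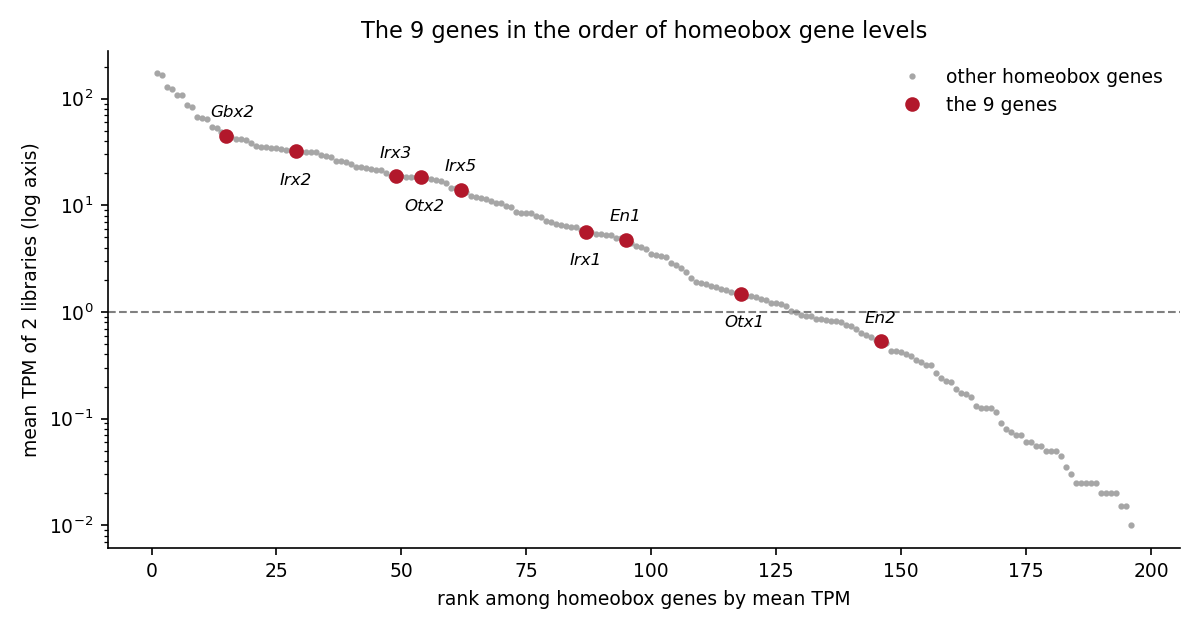
Mean TPM of 2 libraries (log axis) against rank for the homeobox genes with a TPM above 0, with the 9 genes in red, the others in grey and a dashed line at 1 TPM. The 15 homeobox genes at 0 in both libraries are not drawn. The red points run from rank 15 (Gbx2) to rank 146 (En2).

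Transcript shares are the deposited percent of a gene's TPM (IsoPct) assigned to each annotated transcript. En1, En2, Irx1 and Irx5 have 1 transcript each in the tables, and the other 5 genes have 2 to 8. Of the 24 transcripts of the 9 genes, 3 had no counts in either library.

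**Figure D3:**
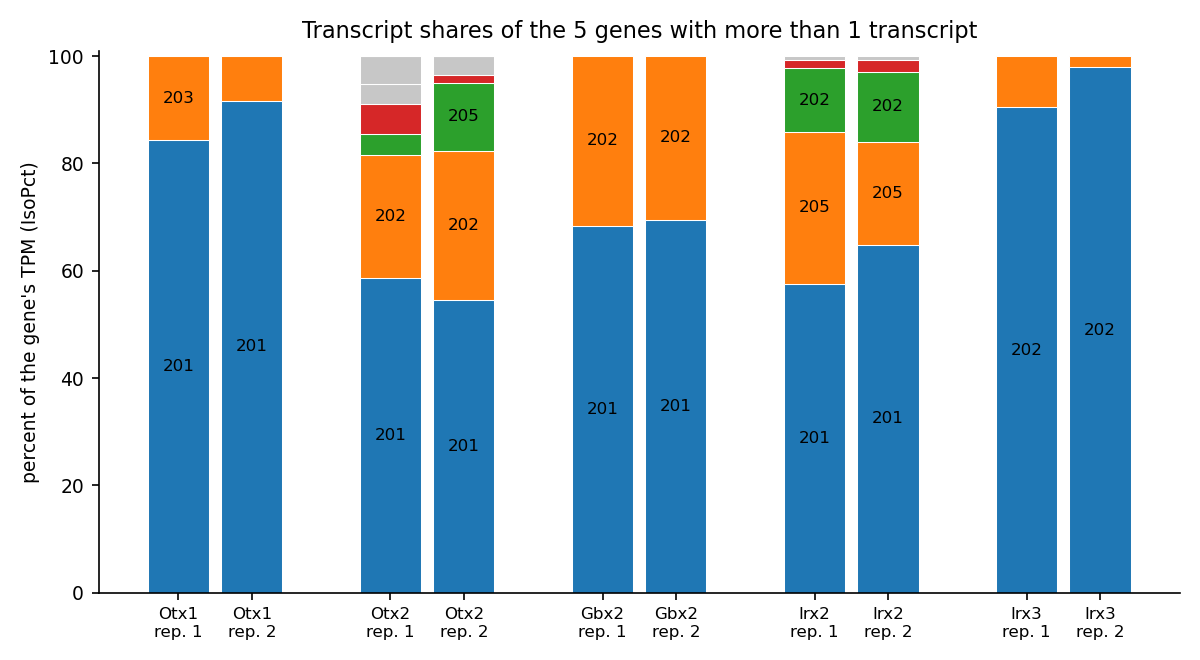
Percent of the gene's TPM (IsoPct) per transcript for Otx1, Otx2, Gbx2, Irx2 and Irx3, with replicate 1 left of replicate 2 and segments labelled by transcript number where they hold 10% or more. The leading transcript, drawn at the bottom, is the same in both libraries for all 5 genes.

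Otx2 is known to use several promoters, and its transcripts differ at their starts and at a splice site within the coding region. The spliced sequence there is shown because it separates coding regions of different length. The 24 bases in capitals, at chr14:48661451-48661474 on the minus strand, are kept in Otx2-202 and Otx2-207 and skipped in Otx2-201, and 20 bases stand on either side.
Otx2-202: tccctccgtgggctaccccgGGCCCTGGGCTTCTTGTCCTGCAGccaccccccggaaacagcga
Transcripts with the 24 bases held 28.1% of Otx2 TPM in replicate 1 and 27.9% in replicate 2, that is 4.99 and 5.23 TPM. The intervals of Otx2-202 overlapped, at 2.23 to 5.36 TPM in replicate 1 and 3.50 to 6.44 TPM in replicate 2. Otx2-201 led with 58.7% of the gene's TPM in replicate 1 and 54.5% in replicate 2, at 10.4 and 10.2 TPM, and Otx2-202 came next with 22.9% and 27.9%.

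The annotated starts (GENCODE M21) of Otx2 transcripts fell into an upstream group and an intermediate group. Otx2-201 has 2144 bases in M21 and 2284 in the deposited tables, so the start used in the quantification may differ from the annotated start given here. The upstream group (Otx2-202, Otx2-205, Otx2-207 and Otx2-208) held 35.7% of Otx2 TPM in replicate 1 and 44.0% in replicate 2. The intermediate group (Otx2-201 and Otx2-203) held 64.3% in replicate 1 and 56.0% in replicate 2. Otx2-204, which starts furthest downstream among the coding transcripts, had no counts in either library. Short partial transcripts carried part of the difference between libraries, with Otx2-205 at 3.99% and 12.7% and Otx2-207 at 5.23% and 0% in replicates 1 and 2, and the intervals of each of these overlapped. Between the libraries, the mean share of the upstream group was 39.9% ± 5.90 (SD, n = 2).

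**Figure D4:**
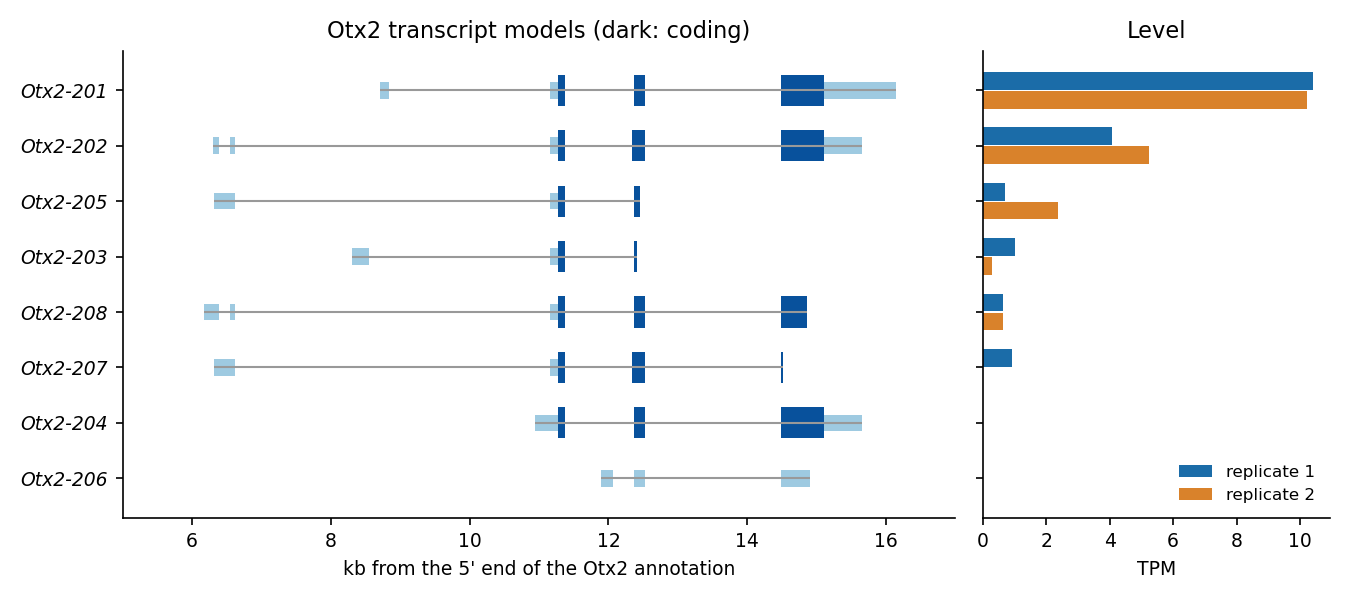
Annotated Otx2 transcripts (left, in kb from the 5′ end of the gene annotation, exons light and coding parts dark) beside the TPM of each (right, bars from 0, replicate 1 blue above replicate 2 orange). Otx2-201, which starts in the intermediate group, reaches 10.4 and 10.2 TPM, and Otx2-204 and Otx2-206 have none.

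The 250 bases before the start site nearest to each of these leading transcripts are given 5′ to 3′ on the minus strand, from the RefSeq promoter windows on GRCm38.p6. They are shown because Otx2-201 and Otx2-202 were assigned counts in both libraries. Counts were assigned to whole transcripts, so the use of either start was not measured. The window before the Otx2-202 start lies at chr14:48667509-48667758 and that before the Otx2-201 start at chr14:48665110-48665359. Capitals mark matches to TAATCC, bases that lysine-50 homeodomains such as those of the Otx proteins are known to prefer, to TAATTA, a site of many other homeodomains, to ACANNTGT, bases bound by Irx proteins, or to the TATA box TATAAA, on either strand.
Otx2 upstream start: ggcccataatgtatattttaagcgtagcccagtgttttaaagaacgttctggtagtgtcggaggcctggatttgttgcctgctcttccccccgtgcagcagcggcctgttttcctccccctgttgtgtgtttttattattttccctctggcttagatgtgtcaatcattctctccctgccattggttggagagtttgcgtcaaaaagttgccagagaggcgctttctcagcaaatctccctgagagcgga
Otx2 intermediate start: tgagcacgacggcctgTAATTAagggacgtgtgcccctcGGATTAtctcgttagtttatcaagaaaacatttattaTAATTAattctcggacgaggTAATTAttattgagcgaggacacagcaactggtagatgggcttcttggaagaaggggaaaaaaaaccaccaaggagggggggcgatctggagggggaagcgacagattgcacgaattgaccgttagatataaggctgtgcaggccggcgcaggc
The window before the intermediate start held 3 matches to TAATTA and 1 to TAATCC, which reads GGATTA on the strand shown, with no overlap among them. Of 32817 RefSeq windows of that length, 4.85% held TAATTA, 6.25% TAATCC, 6.32% ACANNTGT and 12.4% TATAAA. These letters did not occur in the window before the Otx2-202 start. In all, 8 windows belong to the 9 genes, 4 of them to Otx2 and 1 each to En1, Gbx2, Irx2 and Irx3, and in the windows of the last 4 genes none of the letters occurred. Of the other Otx2 windows, not shown, 1 held a match to TAATTA and to TATAAA and 1 held none. The window with matches, chr14:48667645-48667894, lies before the annotated start of Otx2-208, which is also in the upstream group. A match is a description of the sequence and not a measured binding site.

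Gbx2 had a coding transcript, Gbx2-201, and a transcript annotated as a retained intron, Gbx2-202. Gbx2-201 held 68.4% of the gene's TPM in replicate 1 and 69.5% in replicate 2, at 30.8 and 31.1 TPM. Gbx2-202 held 31.6% and 30.5%. Only the first 42 bases of Gbx2-202, at chr1:89929144-89929185 on the minus strand, lie in the intron of Gbx2-201, and 96.6% of its bases are shared with it. Those intron bases, which Gbx2-201 lacks, are shown in capitals, followed by the first bases of the exon. Gbx2-202 in turn lacks the first exon of Gbx2-201.
Gbx2-202: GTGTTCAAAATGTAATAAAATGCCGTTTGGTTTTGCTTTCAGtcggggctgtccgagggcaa
The deposited intervals of Gbx2-202 ran from 10.3 to 17.2 TPM in replicate 1 and from 10.3 to 16.6 TPM in replicate 2, and these intervals overlapped. Dividing all Gbx2 counts by the length of Gbx2-201 alone gave a TPM-scale value of 38.6 ± 0.0499 (SD, n = 2), still the highest of the 9 genes on that scale.

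Irx2-201, the full coding transcript of Irx2, held 57.6% of the gene's TPM in replicate 1 and 64.9% in replicate 2. Its level was 19.5 TPM in replicate 1 and 19.6 TPM in replicate 2, with overlapping intervals. Irx2-205, a transcript of 559 bases all of which lie within Irx2-201, held 28.2% in replicate 1 and 19.2% in replicate 2, at 9.51 and 5.81 TPM. The gap between the gene's TPM values in the libraries thus lay in the short transcript, although its intervals overlapped. Its counts were 90.3 in replicate 1 and 65.2 in replicate 2, or 7.66% and 4.79% of the gene's counts. Irx2-202, annotated as a retained intron, held 12.0% and 13.0%.

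Irx3-202 held 90.5% of Irx3 TPM in replicate 1 and 97.9% in replicate 2. Irx3-201, the remainder, differs in the coding region by 14 bases at chr8:91799659-91799672 on the minus strand, a number that is no multiple of 3. They are shown in capitals between 20 bases on either side.
Irx3-201: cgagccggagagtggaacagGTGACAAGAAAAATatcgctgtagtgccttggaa
Irx3-201 had 1.90 TPM in replicate 1 (interval 0.768 to 3.66) and 0.37 TPM in replicate 2 (interval 0.0840 to 1.22), and these intervals overlapped. Otx1-201, the coding transcript of Otx1, held 84.3% in replicate 1 and 91.6% in replicate 2, and the rest was assigned to Otx1-203, annotated as a retained intron. That remainder rested on 28.2 and 13.6 counts in replicates 1 and 2.

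Of the 9 genes, 3 overlap a measured gene on the opposite strand, and 2 of them, Gbx2 and Irx3, had fractional estimated counts. Whether counting used strand is not given in the sources used here, so reads of such partners cannot be told apart. Gbx2 overlaps D130058E05Rik over 946 bp, and the partner had 153 estimated counts in replicate 1 and 256 in replicate 2, with an adjusted p of 0.00521 in a two-sided exact binomial test of the 2 libraries. The partner's share of the counts of both genes was 8.61% and 11.8%. Irx3 overlaps the antisense gene Irx3os over 1653 bp, and Irx3os had 77.3 and 72.2 estimated counts, or 7.00% and 6.36% of the sum. The sums of partner and gene were whole numbers, 1775 and 2176 for Gbx2 and 1104 and 1135 for Irx3, to within 0.005 counts. The other 7 genes had whole counts in both libraries, Otx2 among them. Otx2os1, a noncoding gene on the opposite strand, overlaps the annotated span of Otx2 over 5112 bp and had 21 and 30 counts, or 1.61 and 1.76 TPM, in replicates 1 and 2.

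Without overlap, 3 annotated genes with counts lie within 10 kb of an end of the 9 genes. Crnde, a noncoding gene that is transcribed away from Irx5 on the other strand, had 33.6 and 28.0 TPM and so exceeded Irx5 in both libraries. Gm20554, a noncoding gene beside Irx2, had 15 and 28 counts. Ehbp1, upstream of Otx1, had 17.4 and 13.9 TPM.

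The libraries were compared gene by gene with a two-sided exact binomial test of rounded counts, given library sizes scaled by edgeR's TMM, with Benjamini-Hochberg adjustment over 19687 genes. The test compares these 2 libraries and covers counting error only. It called 2 of the 9 genes at an adjusted p under 0.05, where 12.6% of all genes tested were called, 5.49% as higher and 7.07% as lower in replicate 1. Among the 164 homeobox genes tested, 41.5% were called. Both genes called, En1 and Irx5, were higher in replicate 1. By TPM, 7 of the 9 genes were higher and 2 lower in replicate 1, and the median difference of the 9 on log2(TPM + 1) was 0.15, beside 0.01 over all genes tested.

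En1 had 330 and 198 counts in replicates 1 and 2, a fold of scaled counts of 1.94 (95% interval 1.62 to 2.33) with an adjusted p of 6.6e-12 in the exact binomial test. Irx5 had 724 and 713 counts, a fold of 1.18 (95% interval 1.06 to 1.31) with an adjusted p of 0.0168 in the same exact test. Irx3, its neighbour, had a fold of 1.13 (95% interval 1.03 to 1.23) with an adjusted p of 0.0567 in the exact test, which missed the threshold. Irx3 joined the genes called when counts were scaled by library totals, when genes needed 100 counts, and when disjoint deposited intervals were used, a criterion met by 9.27% of genes whose mean was at least 1 TPM. The adjusted p in the exact test was 0.140 for Otx1, 0.548 for Otx2, 0.841 for Gbx2, 0.702 for En2, 0.919 for Irx1 and 0.942 for Irx2. For Otx2 the 95% interval of the fold was 0.849 to 1.05, and for Irx2 it was 0.932 to 1.09. For En2, with 41 and 40 counts, it was wide, from 0.753 to 1.89.

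**Figure D5:**
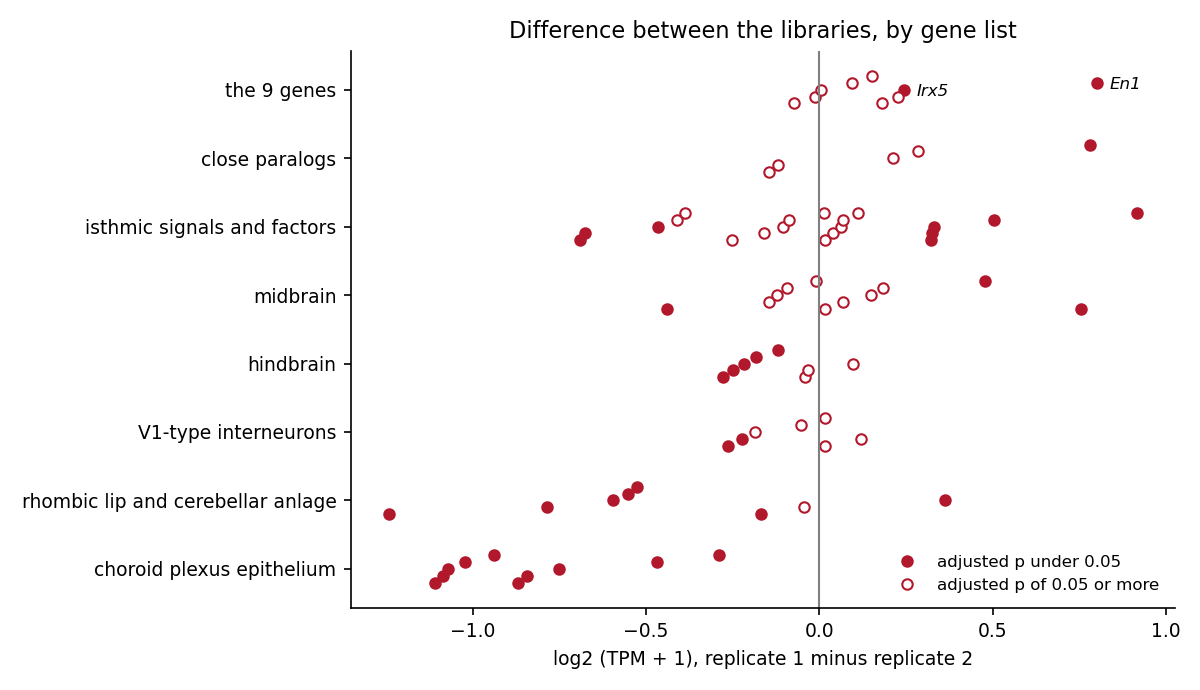
Difference in log2(TPM + 1), replicate 1 minus replicate 2, for genes with 10 or more counts in 8 lists, with filled points for genes called in the exact binomial test and open points for the others. En1 lies at 0.80 and Irx5 at 0.24 among the 9 genes, while all 10 choroid plexus genes lie below 0.

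Genes of the isthmic signalling system were set beside the 9 genes. Of 20 such genes, 19 were detected. By mean TPM the highest was Fgf15, an FGF ligand of the neural tube, at 29.9 and 48.8 TPM in replicates 1 and 2. It was not the highest in replicate 1. Spry2, an inhibitor of FGF signalling, had 31.8 and 34.3 TPM, and Cnpy1, an endoplasmic reticulum protein known to act in FGF signalling in zebrafish, 34.8 and 27.4 TPM. Fgf8, the organising signal of the isthmus, was the lowest, at 0.36 and 0.78 TPM on 7 and 16 counts. In this list 5 of the 20 genes were called higher in replicate 1 (Pax5, Pax8, Sp8, Spry1 and Cnpy1) and 3 lower (Fgf15, Fgf17 and Etv1). Over all genes tested, 5.49% were called higher and 7.07% lower. Pax5, a paired-box factor of the isthmic territory, had 5.10 and 2.23 TPM in replicates 1 and 2 (log2 difference 0.92, adjusted p 3.1e-05 in the exact test), beside 6.33 and 3.21 TPM for En1. Pax5 was picked out after its values were seen, as were the other genes named here only for being called. The median log2 difference of the list was 0.01, beside 0.01 over all genes tested.

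Genes listed as markers of the midbrain, the territory in front of the border, were also set beside the members. Of 11 listed, 8 reached 1 TPM in both libraries, led by Pou4f1 (68.2 and 67.5 TPM), Nr4a2 (23.3 and 20.9 TPM) and Pax3 (14.4 and 19.8 TPM). These 3 are also expressed outside the midbrain. Whether the other listed genes are restricted to the midbrain was not tested. The same threshold was reached by 62.2% of annotated protein coding genes, so the count alone does not show that midbrain tissue was present. Slc6a3, the dopamine transporter, was the lowest at 0.10 and 0.05 TPM. Pitx3 had 0.18 and 0.26 TPM, and Pax7, with 1.34 and 0.68 TPM, fell below the threshold in replicate 2. Tal2 and Pax7 were called higher and Pax3 lower in replicate 1, with Tal2, a factor of midbrain GABA neurons, at 3.44 and 1.63 TPM. The summed level of the 11 genes was 145 TPM in replicate 1 and 146 TPM in replicate 2. The part of midbrain tissue in the levels of Otx2, En1 and the other genes was not tested.

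Of the 8 genes listed for hindbrain identity, 8 were detected. Hoxc4, Hoxb2 and Hoxa2 were the highest, at 66.3, 34.9 and 33.4 TPM on average, and Egr2 the lowest at 3.20 TPM. Of these 8 genes, 5 were called lower in replicate 1 and none higher. Over all genes tested 7.07% were called lower, and 41.5% of the homeobox genes tested were called in either direction. Of the forebrain and eye markers, 3 of 12 were detected. The highest were Neurod6 (50.9 and 65.0 TPM) and Lhx2 (19.2 and 18.0 TPM), and Six6 was the lowest with 2 counts in replicate 1 and none in replicate 2.

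The choroid plexus list moved between the libraries while Otx2, which that epithelium expresses, did not pass the test. All 10 choroid plexus genes were detected and all 10 were called lower in replicate 1, beside 7.07% of all genes tested. Ttr, the transthyretin gene, had 533 and 1022 TPM in replicates 1 and 2, Enpp2 49.8 and 61.1 TPM and Kcne2 18.5 and 40.4 TPM, and the lowest of the list, Car12, 2.65 and 5.14 TPM. The list's summed level was 664 TPM in replicate 1 and 1245 TPM in replicate 2, with a median log2 difference of -0.91. Otx2 had 17.8 and 18.8 TPM in the same libraries, and the difference between its ratio and those of the list was not tested. The part of choroid plexus tissue in the Otx2 level was not tested.

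The rhombic lip and cerebellar list differed in the same direction as the choroid plexus list. In it 6 of 8 genes were called lower and 1, Lhx9, higher in replicate 1, with a median log2 difference of -0.54. The shares over all genes tested were 7.07% lower and 5.49% higher, and 41.5% of the homeobox genes tested were called in either direction. By mean TPM its highest genes were Lhx5 (41.0 and 42.3 TPM), Pax6 (21.4 and 24.2 TPM) and Lhx9 (21.1 and 16.2 TPM), and its lowest Skor2 (1.19 and 2.21 TPM). Gbx2, whose territory includes the cerebellar primordium, did not pass the test at 45.0 and 44.8 TPM. Of 7 genes listed for V1-type interneurons, the later neurons that carry En1, all were detected. None of the 7 was called higher and 2 were called lower in replicate 1, beside 7.07% of all genes tested called lower. Foxp2 (35.8 and 42.0 TPM), Pax2 (14.1 and 13.9 TPM) and Slc6a5 (8.82 and 9.19 TPM) led that list and Sp9 closed it (1.39 and 1.72 TPM). Their part in the En1 result was not tested.

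Among close paralogs, Irx6, the other gene of IrxB, was the only one of the 5 tested that was called, beside 41.5% of the homeobox genes tested. It had 119 and 45 counts in replicates 1 and 2, with an adjusted p of 7.2e-10 in the exact test. Irx4 of IrxA had 289 and 269 counts and an adjusted p of 0.0623 in the exact test. Its difference on log2(TPM + 1) was 0.29, beside 0.15 for Irx2, 0.18 for Irx3, 0.24 for Irx5 and 0.78 for Irx6, and -0.01 for Irx1. By scaled counts the fold of Irx2 was 1.01, with an adjusted p of 0.942 in the exact test. Dmbx1, a related paired-type homeobox gene of the midbrain, had 10.4 and 11.6 TPM and an adjusted p of 0.0536 in the same exact test.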

How the data were processed

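The members and the gene lists were chosen with earlier results of these data known. The authors deposited a gene and a transcript table per library, with mm10 and GENCODE M4 named in the notes that accompany them. Estimated counts (expected counts, not whole for every gene) are reads that the authors assigned to genes and transcripts, per the column names of the deposited tables. TPM and FPKM per gene and transcript were deposited by the authors, as were the bounds of credibility intervals (a score here, of unstated level), a posterior mean TPM and the percent of a gene's TPM held by each transcript (IsoPct). Aligner, counter and use of strand: not given in the sources used here. Totals were 33080194 and 38756411 estimated counts, of which spike-ins and phiX took 2.31% and 2.54% and were left out of the tests.

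Names and positions came by identifier from GENCODE M21 (GRCm38, which is mm10) for 42462 of 43346 genes. Of the 24 transcripts described, 21 had the same length in M21 as in the tables. Of 262 list symbols, 2 did not match. Ratios of levels are on log2(TPM + 1), a scale that shrinks differences of low genes, and detection required 1 TPM in each library. Counts were rounded and compared with an exact binomial test (SciPy 1.17.1) using TMM sizes from edgeR 4.0.16, on genes with 10 or more counts, since 1 group leaves no contrast for a quasi-likelihood test. DESeq2 1.42.0 size factors, library totals, other filters, pseudocounts, units and single libraries were alternatives. A scaling by leading transcript length was added after seeing the data. Named by rule were all 9 genes, the 3 highest and the lowest gene of each list (all of a list of 6), the nearest and the 3 highest homeobox genes, measured genes within 10 kb and transcripts of 10% or more in both libraries; some genes that this rule names are not reported here. The binomial and Poisson intervals cover counting error only, and what the deposited intervals cover is not given in the sources used here. Reads were counted without molecular identifiers and need not be separate molecules, so the binomial and Poisson intervals may be too narrow.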

Additional observations from a re-analysis of the deposited data

How the results depend on the processing

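No paired analysis was possible because the 2 libraries form 1 group and no groups share replicate numbers. The log2 ratio of Otx2 over Otx1, 2.96 on TPM + 1, was 3.54 with a pseudocount of 0.1, 3.63 with none, 2.69 with FPKM, 2.49 with CPM and 2.57 with the leading transcript's length. That of En1 over En2, 1.86, was 2.88 with a pseudocount of 0.1 and 3.09 with none. That of Gbx2 over Otx2, 1.25, was 1.34 with the leading transcript's length. The IrxB over IrxA ratio, -0.20, turned to 0.18 with CPM and 0.21 with the leading transcript's length. With that length Irx2 stood at 22.4 on the TPM scale, beside 32.0 TPM, while Irx1 stayed at 5.63, Irx3 at 18.7 and Irx5 at 13.9. Otx2 stood at 14.6 on that scale, beside 18.3 TPM. Otx1 and En2, at 1.485 and 0.53 TPM on average, lay near the pseudocount of 1. The cause of these shifts was not tested. In single libraries the ratios ran from 1.21 to 1.29 for Gbx2 over Otx2, 2.81 to 3.11 for Otx2 over Otx1, 1.51 to 2.21 for En1 over En2 and -0.25 to -0.16 for IrxB over IrxA, and 8 genes were detected in either. The other 35 values of these ratios and of the counts of genes under the alternatives stayed within the spread of the libraries or within 1.5 times. Among them, 9 genes were detected with CPM, En2 included, 7 with FPKM, without Otx1, and 6 at a threshold of 5 TPM, without En1 and Otx1. By CPM Irx5 passed Otx2 in the order. The call of Irx3 depended on the scaling and filter: 3 of the 9 genes were called with library totals or a minimum of 100 counts, and 2 with DESeq2 size factors or no filter. With 41 and 40 counts, En2 allows no closer comparison of the libraries.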
